A study of Homo sapiens with 28 samples.

Results

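The 40 genes described here serve protein secretion and the response to endoplasmic reticulum (ER) stress. They were chosen by name for their function from 19821 protein-coding genes on chromosomes 1 to 22 and X. All 40 were found. They fall into 5 roles: 5 stress sensors and transcription factors, 9 chaperones and cochaperones, 6 disulfide isomerases and lectin chaperones, 14 genes of targeting, translocation and signal peptide cleavage, and 6 genes of ER-associated degradation. Each gene was read from its start to its end with 1 kb added at both ends, in 12 peak lists. The lists cover H3K27ac, a mark of active promoters and enhancers, H3K36me2, the mark placed by the methyltransferase NSD2, and H3K27me3, a mark of Polycomb repression. They were made by ChIPmentation, in which sequencing adapters are inserted into precipitated chromatin by a transposase.

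The cells were TKO cells, a derivative of the multiple myeloma line KMS-11 with the genotype WHSC1(+/-), after the older symbol of NSD2. The groups were TKO itself and TKO cells with wild type NSD2 (WT), with the D1240A form or with the F1295A form. All 4 groups are labelled with the same WHSC1(+/-) genotype. The labels name 1 parental line and do not say whether the cells with NSD2 forms are clones or pools or how much NSD2 they make. Each group and mark had 2 replicates, and the authors called peaks on both together, so each value below comes from 1 list, has no replicate error and could not be tested. Differences are therefore given by size, beside the share of all genes that differ as much. The lists rest on 31097592 to 73613753 fragments after duplicates, 61% to 87% of all fragments read, were removed. Of 8 plasma cell markers, 6 had an H3K27ac peak within 1 kb of a gene end in every list, and SDC1 and CD38 had none there. Of 5 myeloid markers none had one in any list, while 3 of 6 B cell and 3 of 5 T cell markers did in every list. No H3K36me2 peak lay on the body of NSD2 itself (0% in all 4 lists).

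Plasma cells secrete large amounts of immunoglobulin and depend on ER folding capacity. When unfolded proteins build up, 3 membrane sensors respond. IRE1, encoded by ERN1, splices the XBP1 mRNA into one for an active transcription factor. ATF6 is cut in the Golgi and its released fragment enters the nucleus, and PERK, encoded by EIF2AK3, slows translation while allowing that of ATF4. ATF4 in turn raises DDIT3, which encodes CHOP. ATF6 and XBP1 act through ER stress response elements in the promoters of chaperone and degradation genes.

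Promoter sequences are shown first because they hold the elements through which several of these genes are known to be induced. RefSeq promoter windows of GRCh38.p14, 250 bases before to 50 bases after a start, were found for 37 of the 40 genes and 15812 genes in all. The windows of HSPA5, the Hsp70 chaperone BiP, HSP90B1, the Hsp90 chaperone GRP94, HERPUD1, a degradation factor at the ER membrane, and HYOU1, a nucleotide exchange factor of BiP, are printed 5′ to 3′ on the gene's strand, with every motif found in capitals.
HSPA5, chr9:125241294-125241593, minus strand: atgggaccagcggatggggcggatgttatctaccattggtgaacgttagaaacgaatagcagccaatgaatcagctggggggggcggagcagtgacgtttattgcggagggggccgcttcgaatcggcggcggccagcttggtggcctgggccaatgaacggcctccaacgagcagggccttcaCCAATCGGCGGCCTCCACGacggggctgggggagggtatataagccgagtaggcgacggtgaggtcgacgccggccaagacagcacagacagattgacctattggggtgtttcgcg
HSP90B1, chr12:103930160-103930459, plus strand: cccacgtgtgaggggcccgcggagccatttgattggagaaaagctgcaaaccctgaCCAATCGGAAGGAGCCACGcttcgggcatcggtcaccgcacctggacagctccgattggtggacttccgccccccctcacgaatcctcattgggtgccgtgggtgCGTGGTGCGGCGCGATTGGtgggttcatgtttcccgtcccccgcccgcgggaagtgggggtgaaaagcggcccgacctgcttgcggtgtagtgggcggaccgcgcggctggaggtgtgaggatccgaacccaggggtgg
HERPUD1, chr16:56931892-56932191, plus strand: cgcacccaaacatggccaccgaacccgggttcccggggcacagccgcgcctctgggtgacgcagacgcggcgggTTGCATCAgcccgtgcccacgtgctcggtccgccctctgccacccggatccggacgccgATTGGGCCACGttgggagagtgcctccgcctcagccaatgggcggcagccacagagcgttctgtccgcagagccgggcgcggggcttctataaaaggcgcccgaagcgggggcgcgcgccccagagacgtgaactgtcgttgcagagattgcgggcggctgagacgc
HYOU1, chr11:119057156-119057455, minus strand: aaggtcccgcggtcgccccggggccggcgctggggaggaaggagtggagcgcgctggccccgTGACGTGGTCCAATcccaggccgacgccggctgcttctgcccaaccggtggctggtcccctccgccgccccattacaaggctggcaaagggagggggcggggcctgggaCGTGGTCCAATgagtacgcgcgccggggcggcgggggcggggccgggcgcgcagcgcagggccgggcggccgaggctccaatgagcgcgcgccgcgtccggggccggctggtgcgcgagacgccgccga

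The ER stress response element was searched on both strands as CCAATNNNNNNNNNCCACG, and a second form, ERSE-II, as ATTGGNCCACG. The first was in the window of 6 of the 37 genes, or 16.2%, against 21 of the 15812 genes with a window, or 0.133%. The 6 are HSPA5, HSP90B1, which holds it at 2 places, CALR and CANX, the lectin chaperones calreticulin and calnexin, PDIA6, a disulfide isomerase, and CRELD2, an ER stress inducible protein. ERSE-II was in the windows of HERPUD1, SDF2L1, a cochaperone of BiP complexes, and HYOU1, which holds it at 2 places, which makes 3 of 37 genes against 15 of 15812, or 0.0949%. These windows of the members are themselves among those counts. The genes were chosen for this response, and several are known to be induced through these elements. Their higher share was therefore built into the choice and is no finding of these data. The XBP1 and ATF6 core TGACGTG was in HYOU1, where it overlaps an ERSE-II, SEC61A1, SEC62 and SSR3, 4 of 37 genes against 2.75% of all genes. The ATF4 and CHOP core TGATGCAA was in HERPUD1 among these genes and in 0.904% of all genes. A match is a run of letters and not a measured binding site. The remaining elements of both forms are shown with 10 flanking bases on either side.
PDIA6, chr2:10812853-10812871, minus strand: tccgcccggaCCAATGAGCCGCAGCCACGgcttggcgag
CALR, chr19:12938384-12938402, plus strand: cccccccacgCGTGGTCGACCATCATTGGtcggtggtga
CANX, chr5:179698778-179698796, plus strand: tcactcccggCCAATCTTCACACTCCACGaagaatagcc
CRELD2, chr22:49918554-49918572, plus strand: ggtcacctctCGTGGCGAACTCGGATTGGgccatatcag
SDF2L1, chr22:21642114-21642124, plus strand: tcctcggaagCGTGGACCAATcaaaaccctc

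H3K27ac was present at every one of the 40 genes in all 4 lists, where 64.7% of the 19821 genes had a peak in all 4. At 38 of the 40 a peak lay within 1 kb of a gene end in all 4 lists, against 55.8% of all genes. PDIA6 and SRPRB, a subunit of the signal recognition particle receptor, had theirs inside the gene, at a RefSeq start within its extent. The 300-base promoter window was touched by a peak at 37 of 37 genes in TKO, D1240A and F1295A and at 36 of 37 in WT. The exception was SEC63, a partner of the translocon. In the same lists 55.8% to 57.0% of all windows were touched.

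Peak height is given as the fragments over the summit of a gene's highest peak, per 1000000 fragments kept in that list (FPM). It is a value at 1 position and does not grow with gene length, though a longer gene offers more places for a peak. The median over the 40 genes was 2.71, 2.87, 3.07 and 2.67 FPM in the order TKO, WT, D1240A, F1295A. Over all genes with a peak it was 1.54, 1.39, 1.66 and 1.49. Ranked among genes with a peak by mean height, the median gene of the set stood at percentile 78.5, and 35 of the 40 lay at or above the median. The ratio of a gene's highest to its lowest list had a median of 1.21, against 1.29 over all genes with a peak in all 4.

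**Figure D1:**
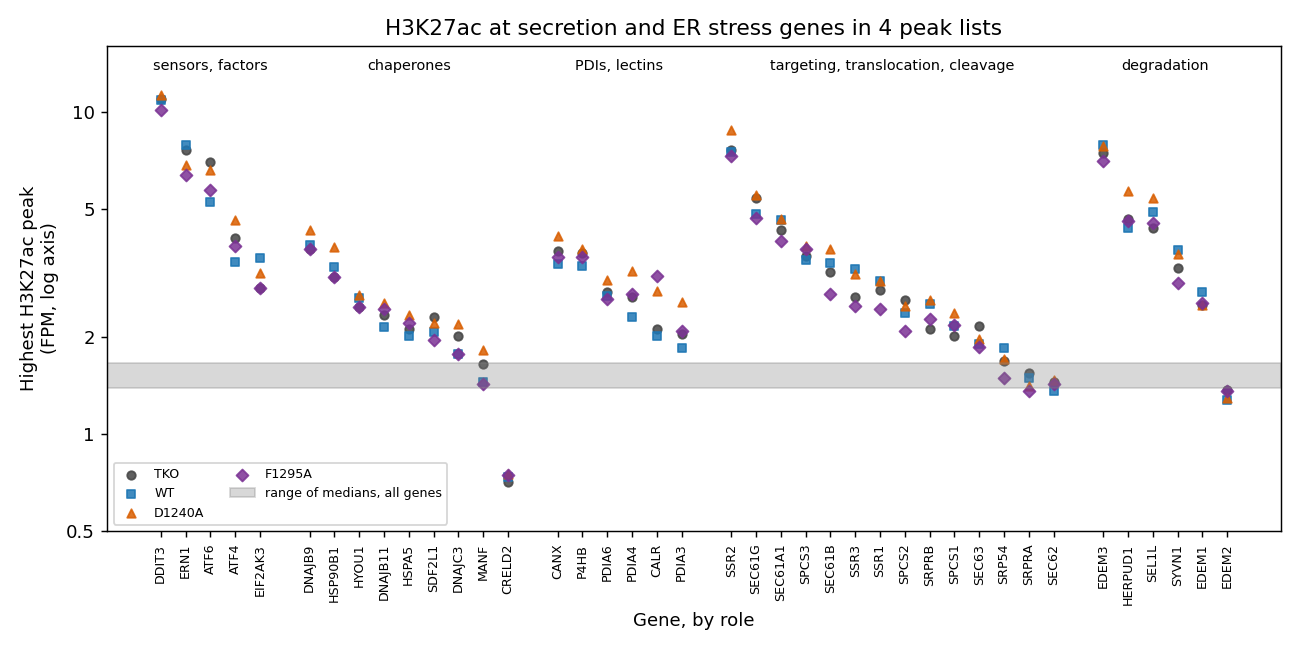
Height of the highest H3K27ac peak in each of 40 genes, on a log axis in FPM, with 1 point per list and genes ordered by mean height within each role; the grey band spans the medians over all genes in the 4 lists. DDIT3, between 10.1 and 11.3 FPM, stands highest and CRELD2, between 0.71 and 0.75, lowest.

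The stress sensors and factors had the highest medians of the 5 roles, 6.97, 5.23, 6.58 and 5.72 FPM in the order TKO, WT, D1240A, F1295A. DDIT3 and ATF6, like SSR2 below, lie in 1 Mb blocks covered by all 12 lists. These hold 29.9% to 33.8% of the H3K27ac peak length. Outside them ERN1 had 7.91 FPM in WT, but EIF2AK3 had 3.52 and ATF4 3.41, below the degradation genes' median of 4.04. In the other lists ATF4 stood just above that median and EIF2AK3 below it. The ranking in WT therefore rests on the block genes. DDIT3 had 11.0, 10.9, 11.3 and 10.1 FPM in the same order, from 804, 803, 766 and 695 fragments. Its 3.93 kb body was covered in full in all 4 lists, by a single peak 10.8 to 15.4 kb long that also spans parts of MARS1 and MBD6, so the signal cannot be assigned to DDIT3 alone. ERN1 had 7.63, 7.91, 6.84 and 6.35 FPM. The top of ERN1 acetylation was not at its start but 53.1 to 53.2 kb inside the gene in all 4 lists, with 558 fragments (exact Poisson 95% interval 513 to 606, counting error only) in TKO, against 299 for the highest peak reaching within 1 kb of the start. ERN1 was also among the most broadly acetylated genes, at percentile 99.7 of width, with 59.3, 59.2, 52.7 and 56.8 kb of its 91.0 kb body under peaks.

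ATF6 had its tallest peak 39.3 to 40.1 kb inside the gene in TKO, D1240A and F1295A, at 6.97, 6.58 and 5.72 FPM, and just before its start in WT, at 5.23 FPM. The inner peak had 510, 447 and 392 fragments in TKO, D1240A and F1295A, where the highest peak reaching within 1 kb of the start had 326, 369 and 320, and that peak had 385 in WT. EIF2AK3, at 2.84, 3.52, 3.16 and 2.84 FPM in TKO, WT, D1240A and F1295A, and ATF4, at 4.05, 3.41, 4.61 and 3.82, had theirs at the start. EIF2AK3 and ATF4 were the lowest of this role, yet above the median of all genes in every list.

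The chaperones ranged lower, with medians of 2.31, 2.08, 2.34 and 2.22 FPM in TKO, WT, D1240A and F1295A. DNAJB9, a BiP cochaperone, was tallest at 3.76, 3.87, 4.30 and 3.75, followed by HSP90B1 at 3.06, 3.29, 3.80 and 3.08. HSPA5 had 2.12, 2.01, 2.34 and 2.22 FPM, at percentile 66.1 of genes with a peak. The lowest were MANF, a secreted ER stress factor, at 1.65, 1.45, 1.83 and 1.43, and CRELD2 at 0.71, 0.73, 0.75 and 0.74 FPM. CRELD2, from 51 to 54 fragments, stood at percentile 18.4, and its summits also lie in ALG12 or within 1 kb of it.

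Among the disulfide isomerases and lectin chaperones CANX was tallest, at 3.70, 3.37, 4.11 and 3.55 FPM in TKO, WT, D1240A and F1295A, followed by P4HB, the protein disulfide isomerase itself, at 3.65, 3.33, 3.74 and 3.55. The lowest means were those of PDIA3, at 2.05, 1.85, 2.56 and 2.09, and CALR, at 2.12, 2.01, 2.78 and 3.09. This role spanned the narrowest range of the 5 in TKO, from 2.05 to 3.70 FPM.

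The 14 genes that bring nascent chains into the ER were led by SSR2, a subunit of the translocon-associated protein complex, at 7.59, 7.51, 8.79 and 7.29 FPM, and SEC61G, a subunit of the translocon channel, at 5.40, 4.82, 5.53 and 4.68. SEC62, a translocon partner, at 1.45, 1.36, 1.47 and 1.43, and SRPRA, the other receptor subunit, at 1.54, 1.49, 1.41 and 1.36, were lowest. The 11.9 kb body of SSR2 was covered in full in TKO and D1240A and to 97.3% in WT and 93.8% in F1295A.

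Acetylation was broad over 3 of the 6 degradation genes, EDEM3, SEL1L and HERPUD1. EDEM3, a mannosidase that marks misfolded glycoproteins, had 7.45, 7.88, 7.82 and 7.02 FPM and 48.0, 38.7, 35.6 and 36.3 kb of its 64.6 kb body under peaks in TKO, WT, D1240A and F1295A. HERPUD1 had 4.66, 4.35, 5.67 and 4.57 FPM and was covered from end to end in all 4 lists. SEL1L, the partner of the ubiquitin ligase SYVN1, had its tallest peak, 310 to 366 fragments, about 63 kb from the start and just past the far end of the gene, in a peak 19.6 to 20.5 kb long, while the peak at its start had 139 to 186. EDEM1 had its tallest peak, 171 to 203 fragments, 10.3 to 10.4 kb inside the gene. EDEM1, at 2.51, 2.76, 2.52 and 2.55 FPM, and EDEM2, at 1.37, 1.28, 1.30 and 1.36, were lowest. Of the 37 genes with a RefSeq start, the tallest peak reached within 1 kb of a start in all 4 lists for 32, in none for ERN1, SEL1L and EDEM1, and in some lists for ATF6 and CALR. By the position of the summit itself, 28 had it within 1 kb of a start in all 4 lists and 4 had it farther away in all 4, ERN1, SEL1L, EDEM1 and P4HB. The other 5 were mixed, ATF6, CALR, EDEM3, HSP90B1 and SEC63. These counts of position have no share of all genes beside them and do not show whether the set is unusual. In the long peak of EDEM3 the summit lay 8144 and 11075 bp inside the gene in TKO and WT and 596 and 505 bp inside it in D1240A and F1295A.

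Several of the ER stress response elements printed above lay between acetylation peaks and not under them. At HSP90B1 both elements lay in a gap of 277, 356, 294 and 314 bp between an upstream and a downstream H3K27ac peak (TKO, WT, D1240A, F1295A), with 141 to 258 fragments over the flanking summits. At CANX the element lay in a gap of 236, 246, 268 and 255 bp between peaks of 209 to 279 fragments. The element of CRELD2 lay in a gap of 213 to 228 bp in TKO, WT and D1240A and inside a peak in F1295A, and that of CALR in a gap of 209 bp in TKO and inside a peak in the other lists. Those of HSPA5, PDIA6, HERPUD1, HYOU1 and SDF2L1 were under a peak in all 4 lists, 344 to 808 bp from its summit, except that in WT the peak of HSPA5 ended within the element and covered 12 of its 19 bases. The other 28 genes with a window had neither element, and their median height was 3.01, 3.36, 3.41 and 2.79 FPM in TKO, WT, D1240A and F1295A, against 2.47, 2.65, 2.78 and 2.63 over the 9 genes with one.

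No gene of the set gained or lost H3K27ac at its ends in any of the 3 comparisons, of WT with TKO and of the 2 mutant forms with WT, all of which share the WT list. Over all genes 3.35%, 3.2% and 2.93% did. The height of the tallest peak changed by at least 1.5-fold at none of the 40 in WT against TKO, where 7.16% of genes changed, at none in D1240A against WT, where 10.2% did, and at 1 in F1295A against WT, where 4.82% did. The medians of all genes were themselves shifted, by −0.12, +0.23 and +0.07 on the log2 scale, and those of the 40 genes stood at −0.04, +0.14 and −0.04. Relative to the median of all genes, 30 of the 40 were higher in WT than in TKO, 9 were higher in D1240A than in WT and 9 were higher in F1295A than in WT, all by less than 1.5-fold. Without that scaling the counts were 17, 31 and 15, where 30.2%, 83.0% and 61.8% of all genes with a peak in both lists were higher. The direction of these small differences thus depended on the scaling in WT against TKO and in D1240A against WT. In F1295A against WT most of the 40 were lower either way. The lowest log2 ratios were −0.41 for ATF6 in WT against TKO and −0.38 for SSR3 in F1295A against WT, and the highest in D1240A against WT was 0.47 for PDIA4.

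**Figure D2:**
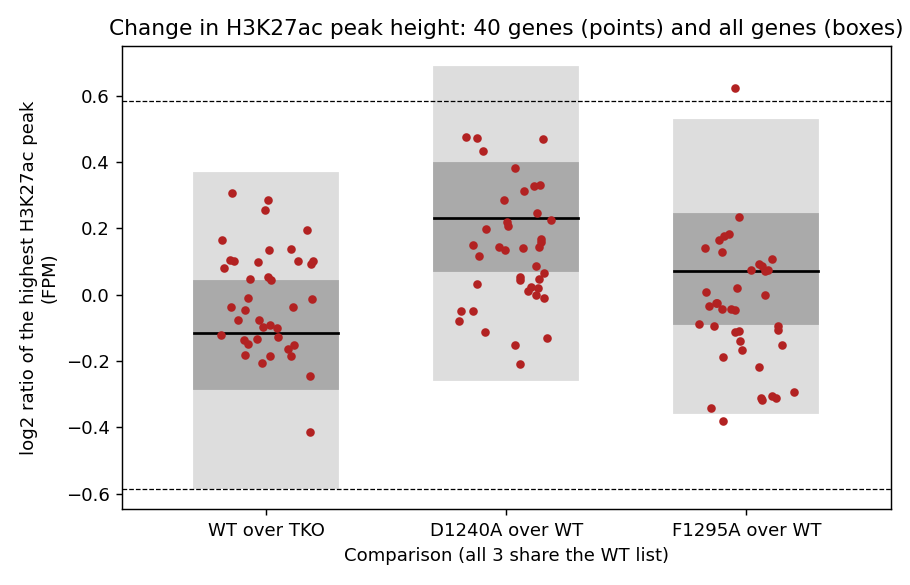
Log2 ratio of the tallest H3K27ac peak in FPM, with 1 point for each of the 40 genes in each comparison; dark and pale boxes span the central 50% and 90% of all genes with a peak in both lists, black lines are their medians, and dashed lines mark 1.5-fold. All 40 points lie inside the pale box in the first 2 comparisons and 38 do in the third, where CALR alone passes the limit.

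The 1 gene past the limit was CALR, at 2.01 FPM in WT and 3.09 in F1295A. Its tallest peak in F1295A, of 212 fragments, has its summit 7.5 kb downstream of the start, beyond the end of the 5.9 kb gene. A peak with its summit within 1 base of that position was also in the WT list, with 194 fragments or 2.64 FPM, but it began 1328 bp past the gene end and so outside the window. At the start of CALR the height was 2.12, 2.01, 2.55 and 2.04 FPM in TKO, WT, D1240A and F1295A. None of the 37 genes with a RefSeq start changed by 1.5-fold there in any comparison.

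The width of acetylation, in base pairs under peaks, changed by at least 1.5-fold at SSR3, another translocon-associated subunit, and SYVN1. SSR3 had 6453, 4115, 6281 and 4066 bp in the order TKO, WT, D1240A, F1295A, and was called lower in WT than in TKO and higher in D1240A than in WT, where 12.2% of all genes changed in either direction in each of these comparisons. Part of the extra width in TKO and D1240A came from peaks of 13 to 18 fragments, at or just above the smallest peaks in these lists. SSR3 overlaps KCNAB1 or lies within 1 kb of it. Neither call at SSR3 was made at a -log10 q of at least 5 or at equal covered length. SYVN1 had 3072, 2223, 3151 and 3411 bp in TKO, WT, D1240A and F1295A and was called higher in F1295A than in WT, where 10.5% of genes changed. WT was the narrow list, and the peak heights of SYVN1 at the same place were 3.27, 3.74, 3.61 and 2.95 FPM. The widths of DDIT3 and HERPUD1 fill their windows in all 4 lists and cannot show a gain.

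H3K36me2 was uneven over the set. Of the 40 genes 15 had no H3K36me2 peak in any list, among them HSP90B1, HYOU1, DNAJB9, ATF4, HERPUD1 and SYVN1. In TKO 12 had more than 5% of the body covered. Neither count has a share of all genes beside it, so both describe the set alone. Of the 39 genes of at least 2 kb, 51.3%, 28.2%, 38.5% and 43.6% had any coverage in TKO, WT, D1240A and F1295A. Over all genes 44.5%, 28.1%, 37.5% and 42.3% had any. Mean coverage in TKO was 9.95% over the 39 genes and 4.56% over all genes. The mark is broad and was called as separate sharp peaks, so gaps of less than 1 kb between peaks were closed, and coverage is given as the percent of the gene body under the joined peaks. A body at 0% holds no peak past the authors' limit, which is not a measured absence. SSR2 was covered most, with 100%, 58.0%, 95.8% and 100% in the order TKO, WT, D1240A, F1295A. ATF6 had 82.7%, 33.0%, 61.4% and 68.7%, DDIT3 67.9%, 21.3%, 26.5% and 45.2%, and ERN1 38.6%, 0.58%, 14.1% and 27.4%. In all 4 genes WT was the lowest list.

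EIF2AK3 had 20.5%, 2.0%, 8.5% and 14.6% in TKO, WT, D1240A and F1295A, and EDEM3 had 19.6%, 0.90%, 4.5% and 8.5%. All 3 membrane sensors of the stress response had less of the body under H3K36me2 peaks in WT than in the other lists. ERN1, ATF6, DDIT3, EIF2AK3 and EDEM3 share one order, from TKO through F1295A and D1240A to WT. It is also the order of the whole lists, which cover 94.35, 94.34, 77.1 and 73.0 Mb. When the longer lists were cut down to their tallest peaks until all 4 covered as much as the WT list, ERN1 had 20.9%, 0.58%, 11.9% and 18.3% in TKO, WT, D1240A and F1295A, in the same order. The order was kept there by ATF6, DDIT3 and EIF2AK3 but not by EDEM3, with 8.80%, 0.90%, 4.5% and 2.8%. It was also broken by ATF6 and DDIT3 when gaps of up to 3 kb were closed, where DDIT3 had 67.9%, 51.6%, 42.6% and 100% with D1240A lowest, and by EIF2AK3 and EDEM3 when a -log10 q of at least 5 was asked of each peak. ERN1 kept it under each of these settings, but at that q its F1295A and D1240A values were nearly equal, 6.64% and 6.59%.

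**Figure D3:**
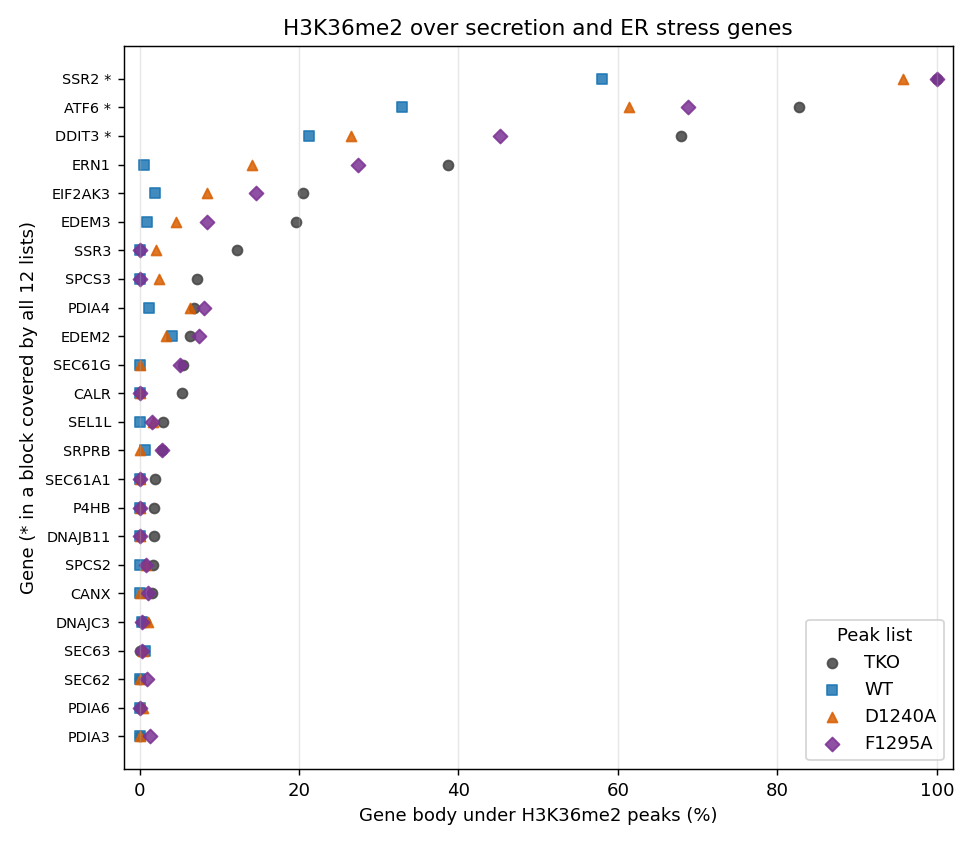
Percent of the gene body under merged H3K36me2 peaks for the genes of the set with any H3K36me2 peak in the body, 1 point per list, ordered by the TKO value; an asterisk marks genes in blocks covered by all 12 lists. WT lies lowest in the 6 genes at the top, for instance 0.58% against 38.6% in TKO for ERN1.

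In WT against TKO, ATF6, DDIT3, ERN1 and SSR2 were lower by at least 25 points, 4 of the 39 genes of at least 2 kb, or 10.3%, where 2.47% of 18611 genes were lower, and none was higher, as 0.167% of genes were. In D1240A against WT, ATF6 and SSR2 were higher by at least 25 points, where 0.876% of genes were higher, and none was lower, as 0.145% were. ATF6 fell short of the limit there without joining peaks, at equal covered length and at a -log10 q of at least 5, with 21.5, 21.2 and 21.9 points, and SSR2 at that q and when gaps of up to 3 kb were closed, with 20.7 and 19.5 points. In F1295A against WT, ATF6, ERN1 and SSR2 were higher, where 2.19% of genes were, and none was lower, as 0.0484% were. In WT against TKO 20 of the 39 genes, or 51.3%, had less coverage by any amount, where 37.8% of all genes had less. Of the 39, 1 gene, SEC63, or 2.56%, had more, where 9.80% of all genes had more. The median difference over the 39 genes was −0.39 points and over all genes 0 points.

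ATF6, SSR2 and DDIT3 lie in blocks of 1 Mb where no list, whatever the mark, covers less than 10% of the bases. These blocks hold 2.84% of all genes but 47.4%, 65.1%, 56.2% and 47.9% of the H3K36me2 peak length in TKO, WT, D1240A and F1295A. The mean difference in WT against TKO was −6.80 points over the 39 genes and −2.39 over all genes. Outside the blocks it was −3.53 points over 36 genes of the set and −2.08 over all genes there. The part of the blocks in the result was not tested. ERN1, on chromosome 17, lies outside them, and without the genes of such blocks it was the 1 gene of the set past the limit in WT against TKO and in F1295A against WT, with none in D1240A against WT. That is 1 of 36 genes, with no share of all genes outside the blocks beside it. It does not show that the set differs from other genes there. The call at ERN1 depends on how peaks are chosen and joined. In WT against TKO its coverage fell by 20.3 points at equal covered length and by 17.7 points at a -log10 q of at least 5, both short of 25 points. In F1295A against WT it was higher by 17.7 points at equal covered length, 6.37 at that q and 18.8 without joining peaks, again short of the limit. The difference kept its direction in each case. The fall of 38.1 points at ERN1 ranked 123 of 18117 genes outside the blocks.

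The peaks behind these percentages were low. The tallest H3K36me2 peak touching the body of ERN1 had 34 fragments in TKO (95% interval 23.5 to 47.5), 24 in WT (15.4 to 35.7), 29 in D1240A (19.4 to 41.6) and 25 in F1295A (16.2 to 36.9), and the smallest peak in each H3K36me2 list has 14. The number of H3K36me2 peaks touching the body of ERN1 was 37, 2, 20 and 29 in the same order. On ATF6 it was 107, 84, 116 and 106, and on SSR2 5, 6, 8 and 4, where WT was not lowest. On DDIT3 it was 2, 1, 1 and 1, so its coverage rests on 1 or 2 peaks per list. Most of the mark on ERN1 lay on the same bases as H3K27ac, with 29.9 of 35.2 kb in TKO, 10.8 of 12.9 kb in D1240A and 20.5 of 24.9 kb in F1295A, and so did 12.1 of 12.7 kb on EDEM3 in TKO. On ATF6 56.6 of 163.4 kb, or 34.6%, did in TKO. H3K27ac peaks covered 74.3% of the whole body of EDEM3 and 30.9% of that of ATF6 in TKO, so the overlap on ATF6 was close to that share. H3K27ac covered 65.2% of the body of ERN1 in TKO and 65.1% in WT, while H3K36me2 peaks went from 38.6% to 0.58%.

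**Figure D4:**
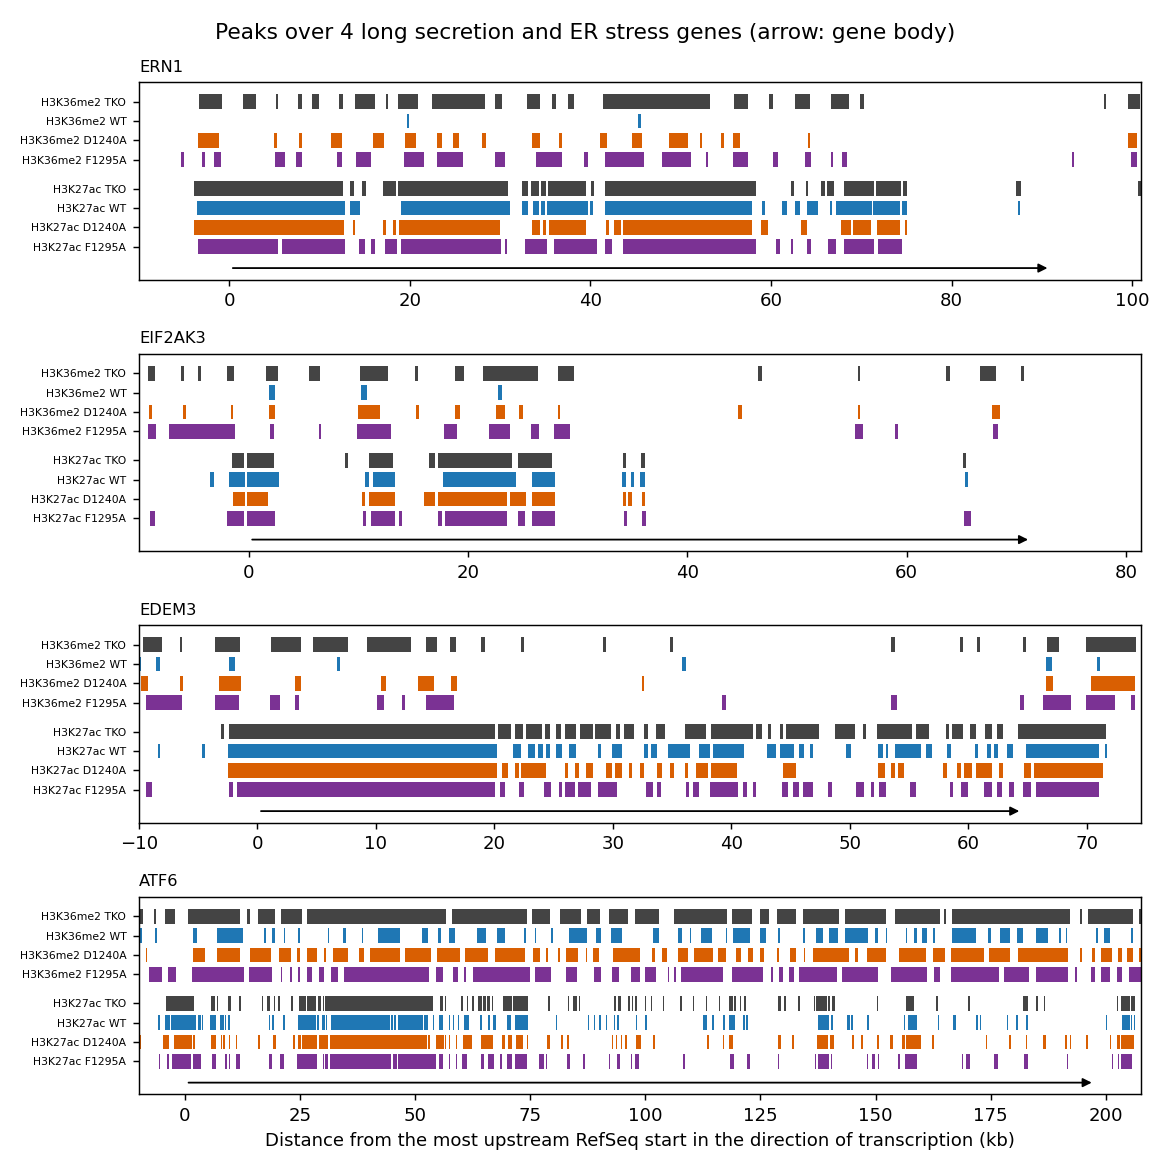
Stretches under H3K36me2 and H3K27ac peaks along ERN1, EIF2AK3, EDEM3 and ATF6 in the 4 lists of each mark, as distance in kb from the start in the direction of transcription, the arrow is the gene body. On ERN1 the H3K36me2 stretches of TKO, the longest 11.8 kb, are reduced in WT to 2 short ones (gaps under 1 kb closed), while the H3K27ac stretches keep their places.

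The other genes of the set had little H3K36me2. In the order TKO, WT, D1240A, F1295A, SSR3 had 12.2%, 0%, 2.0% and 0%, SPCS3, a subunit of the signal peptidase, 7.3%, 0%, 2.4% and 0%, and EDEM2 6.3%, 4.1%, 3.3% and 7.4%. PDIA4, a disulfide isomerase, had 6.8%, 1.2%, 6.4% and 8.1%, and it was the 1 gene of 37 whose promoter window was touched by H3K36me2 peaks, in all 4 lists, by peaks of 17 to 23 fragments. PDIA4 has 2 RefSeq starts, and these summits, at chr7:149025126 to 149025674, lay by the start farther inside the gene. Its tallest H3K27ac summits, at 149028202 to 149028260, lay by the other start. Over all genes with a window 1.24% to 2.52% were touched. The lowest genes were the 15 without a peak.

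Few H3K27me3 peaks lay on the set. No peak lay over 35 of the 40 genes in any list, a count that has no share of all genes beside it. None touched any of the 37 promoter windows, against 1.16% to 1.57% of all windows. Of the 39 genes of at least 2 kb, 12.8%, 7.69%, 7.69% and 5.13% had any of the body covered in TKO, WT, D1240A and F1295A. Over all genes 25.5%, 23.1%, 20.9% and 20.4% had. SSR2 had 6.4%, 23.7%, 6.8% and 0% of its body covered, in the order TKO, WT, D1240A, F1295A, from peaks of 11 to 19 fragments where there were any. ATF6 had 2.7%, 1.5%, 1.2% and 0%, and SRPRB 2.1%, 0%, 1.9% and 0.67%. DNAJC3, a cochaperone that binds PERK, had at most 0.54%, and PDIA6 had 0.94% in TKO alone. None of the 39 genes changed by 25 points, where 0.484%, 0.677% and 0.553% of genes did in the 3 comparisons. SSR2 and ATF6 lie in the blocks covered by all 12 lists, which hold 66.7% to 71.5% of the H3K27me3 peak length.

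A wider list of 77 other genes of the secretory pathway was read in the same way. XBP1, whose promoter also holds an ER stress response element, had 6.83, 7.1, 6.80 and 6.42 FPM of H3K27ac in TKO, WT, D1240A and F1295A and no H3K36me2 peak in its body. H3K27ac lay within 1 kb of an end at 73 of the 77 in all 4 lists, and SURF4, a cargo receptor, was the 1 gene gained at an end, in D1240A against WT. For H3K36me2, 3 of the 77 were lower in WT than in TKO, 1 was higher in D1240A than in WT and 3 were higher in F1295A than in WT. COPZ1, a subunit of the COPI coat outside the shared blocks, was in all 3 counts with 92.3%, 24.6%, 55.1% and 90% of its body covered in TKO, WT, D1240A and F1295A. OS9, a degradation lectin, had 78.4%, 40.1%, 60.3% and 84.0%, COPA, another COPI subunit, 87.3%, 63.1%, 85.7% and 99.2%, and DERL1, a degradation channel component, 26.3%, 0%, 7.4% and 19.9%. OS9 and COPA lie in the shared blocks. None of the 77 changed by 25 points for H3K27me3.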

How the data were processed

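The 12 peak lists were called by the authors with MACS 2.2.7.1 against GRCh38, per the file headers, on both replicates of a condition and mark together, as paired-end fragments, at a q value limit of 0.05, with 1 fragment kept per position and without a control, a local background or broad calling. The submitters' processing notes also name Trimmomatic 0.36, FastQC 0.11.4 and Bowtie2 2.4.5. The deposited pileup signal is the number of fragments over a summit, not scaled by the authors. The deposited fold enrichment is a ratio of the pileup to 1 background value per list, on which the deposited -log10 q values also rest. The p column of the 12 lists was not used. The 4 inputs were not analysed here.

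Genes were placed by RefSeq extents of GRCh38.p14, from which 153 protein-coding genes with scaffold coordinates were removed. Body coverage, with peaks joined across gaps under 1 kb, was compared over 18611 genes that reach 2 kb. SDF2L1, under 2 kb, is given by value. Limits were 25 points of body coverage, a peak reaching within 1 kb of a gene's start or end in one list alone, and 1.5-fold for height and width. Exact Poisson intervals at 95% cover counting error only. With 1 list per condition and mark no test was made. The genes, the wider list, the markers, the motifs and the rule for naming genes were chosen with earlier results of these data known. The rule named every gene past a limit, the 2 highest and 2 lowest for H3K27ac in each role, the 5 highest and 5 lowest for H3K36me2, and every gene with H3K27me3. CALR's downstream peak, the elements' place relative to peaks and XBP1 were added after their values were seen. The steps used matplotlib 3.10.9, SciPy 1.17.1, pandas 2.3.3 and numpy 2.4.6 under Python 3.11.15, and were tested on simulated data.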

Additional observations from a re-analysis of the deposited data

How the results depend on the processing

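No paired analysis was possible because each list holds both replicates of a condition. Of 114 counts of the 40 genes recomputed under alternatives, 87 stayed within 1.5 times the main count and 27 moved; the cause was not tested. Leaving out the shared blocks was chosen after seeing the data. For H3K36me2, the 4 genes lower in WT than in TKO became 0 at a limit of 50 points and 1 without the shared blocks. The 2 genes higher in D1240A than in WT became 1 without merging, 1 at a -log10 q of at least 5, which was DDIT3 in place of ATF6 and SSR2, 1 at equal covered length, 0 at 50 points and 0 without the shared blocks. The 3 genes higher in F1295A than in WT became 5 with merging within 3 kb, 0 at 50 points and 1 without the shared blocks. For H3K27me3, the 0 genes past the limit became 1 in each of the 3 comparisons at 15 points. For H3K27ac at gene ends, 0 became 1 in each comparison when 50% of the window had to be covered. For height, a lower fold limit gave 1, 7 and 3 genes in the comparisons of WT with TKO, of D1240A with WT and of F1295A with WT, and scaling to the median of all genes gave 0 in F1295A against WT. For width, a -log10 q of at least 5 and equal covered length each gave 0 in WT against TKO and in D1240A against WT, and the lower fold limit gave 6, 4 and 3 genes. Counts that stayed close could hold other genes: with merging within 3 kb, 6 genes were lower in WT than in TKO, of which 2 were among the 4, and at a -log10 q of at least 5 DDIT3 replaced ERN1 among the 3 higher in F1295A than in WT. H3K36me2 peaks of 14 to 48 fragments limit what their coverage can show, a deeper or broad call could join or add stretches, and no list has a replicate.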
